A study of Mus musculus with 8 samples.

Results

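The 9 Pax genes of the mouse, Pax1 to Pax9, were described by the H3K27me3 regions found on them in female neural stem cells (NSCs). A region was assigned to a Pax gene where it overlapped the GRCm38 gene body, taken from GENCODE, or the 5 kb on either side of it. By this rule 12 of the 13585 regions in the deposited table belonged to the family, and all 9 genes had at least 1 region. Pax3, Pax5 and Pax7 had 2 regions each and the other 6 genes had 1 each, so no member lacked a region.

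H3K27me3, the trimethylation of histone H3 at lysine 27, was profiled by ChIP-seq, the sequencing of immunoprecipitated chromatin, in cells with and without the MommeD43 mutation of Smchd1, a non-canonical SMC protein that takes part in gene silencing. The WT group (Smchd1GFP+/+) and the homozygous mutant group (Smchd1GFPMommeD43/MommeD43) each held 3 ChIP libraries from separate primary NSC lines, with 1 whole cell extract (WCE) library per genotype. All cells were of C57BL/6J background, came from the cortices of E14.5 embryos, were used at fewer than 10 passages, and carried a GFP tag on endogenous Smchd1, the WT controls included. The table gives 1 pooled log2 value per region and genotype, without SD, so no test between genotypes was possible and the counting error given below covers sequencing depth alone. Single libraries and WCE were not analysed here.

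Pax genes encode transcription factors with a paired domain, and they specify organs and cell types in the embryo from the vertebral column and kidney to the eye, the muscle and the B cell. They fall into 4 subfamilies that share domain structure: Pax1 and Pax9, Pax2, Pax5 and Pax8, Pax3 and Pax7, and Pax4 and Pax6. H3K27me3 is laid down by Polycomb repressive complex 2 on developmental regulators that a cell does not use, often over broad domains around starts rich in CpG. Pax6 is also a regulator of the progenitors of the embryonic cortex, the tissue these cells came from. Its expression in the cells was not examined here.

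The promoters below show Pax starts of low and of high CpG content, and for Pax6 a start inside and a start outside its H3K27me3 region. Each is the 250 bases before a RefSeq start (build GRCm38.p6), written in the direction of transcription, with every CG in capitals. CG reads the same on both strands, so each was counted once. The first Pax6 start (chr2:105668646-105668895, plus strand) held 15 CG and lay in the Pax6 region. The second Pax6 start (chr2:105682213-105682462, plus strand) also held 15 CG and lay in no region, 4713 bp past the end of the Pax6 region. The Pax8 start (chr2:24475600-24475849, minus strand) held 6 CG, the most 3′ of the 3 Pax2 starts (chr19:44756656-44756905, plus strand) held 25, and the Pax9 start (chr12:56695221-56695470, plus strand) held 7. RefSeq starts can differ from the GENCODE starts used elsewhere here. For Pax9 the GENCODE start was at -3704 bp relative to this RefSeq start, so the printed bases lie within the GENCODE gene body.
Pax6 first start: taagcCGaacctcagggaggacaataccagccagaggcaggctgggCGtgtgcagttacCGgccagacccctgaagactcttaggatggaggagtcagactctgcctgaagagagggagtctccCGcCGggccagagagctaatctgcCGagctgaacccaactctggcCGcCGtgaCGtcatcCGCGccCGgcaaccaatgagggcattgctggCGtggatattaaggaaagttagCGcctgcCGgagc
Pax6 second start: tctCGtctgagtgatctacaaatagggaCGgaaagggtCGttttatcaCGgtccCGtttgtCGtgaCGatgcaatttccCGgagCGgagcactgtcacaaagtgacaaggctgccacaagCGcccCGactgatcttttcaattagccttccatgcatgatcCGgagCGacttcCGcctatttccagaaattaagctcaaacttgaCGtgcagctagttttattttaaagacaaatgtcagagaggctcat
Pax8 start: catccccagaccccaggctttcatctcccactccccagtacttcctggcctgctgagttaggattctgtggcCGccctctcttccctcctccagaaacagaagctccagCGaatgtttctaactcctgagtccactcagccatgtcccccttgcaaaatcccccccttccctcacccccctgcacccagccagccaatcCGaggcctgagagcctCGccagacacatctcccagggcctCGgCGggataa
Pax2 most 3′ start: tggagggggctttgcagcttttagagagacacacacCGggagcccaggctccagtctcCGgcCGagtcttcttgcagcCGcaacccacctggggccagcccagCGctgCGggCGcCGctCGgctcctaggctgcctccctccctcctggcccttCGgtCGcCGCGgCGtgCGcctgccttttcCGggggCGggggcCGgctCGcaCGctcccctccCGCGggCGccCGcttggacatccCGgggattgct
Pax9 start: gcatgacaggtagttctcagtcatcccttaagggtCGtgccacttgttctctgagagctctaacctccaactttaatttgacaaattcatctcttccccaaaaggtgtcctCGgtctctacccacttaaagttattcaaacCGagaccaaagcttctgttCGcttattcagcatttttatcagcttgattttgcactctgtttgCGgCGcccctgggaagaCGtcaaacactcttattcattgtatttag

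RefSeq promoter windows were matched for 7 of the 9 genes, Pax3 and Pax4 being the others, and gave 10 windows of 300 bases (250 before and 50 after the start). At least 10 CG were found in 8 of these 10 windows, against 43.5% of all 32851 RefSeq windows, and the Pax windows ranged from 7 to 30 CG. The window of the second Pax6 start was the one Pax window of the 10 that lay outside a region. It held 16 CG, close to the 18 of the first Pax6 start, and the windows of Pax8 and of the first Pax2 start held fewest with 7 each.

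Most Pax genes lay within broad H3K27me3 regions. The study joined the peaks of both genotypes into a common set of regions, after widening each peak on both sides and merging close ones. The edges and lengths of regions thus include added flank. How far a region extended in either genotype alone was not measured. The GENCODE start of every Pax gene was inside a region, and 5 of the 9 gene bodies, those of Pax1, Pax2, Pax3, Pax4 and Pax9, were covered from end to end. Part of this cover can be added flank rather than peak, above all for the short Pax4 region. Of the 20807 autosomal protein-coding genes, 42.6% met the same rule of overlap with a region, 28.9% had their start in a region and 9.71% lay wholly within 1 region. Pax7 was covered over 95.4% of its body and Pax5 over 87.4%, whereas Pax6 was covered over 30.2% and Pax8 over 20.5%. The regions were between 5.9 and 496 kb long, 7 of the 12 were 50 kb or more where 6.05% of the autosomal regions were, and together they spanned 1283 kb. Their GC content had a median of 46.3% and their CpG content a median of 12.9 per kb.

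**Figure D1:**
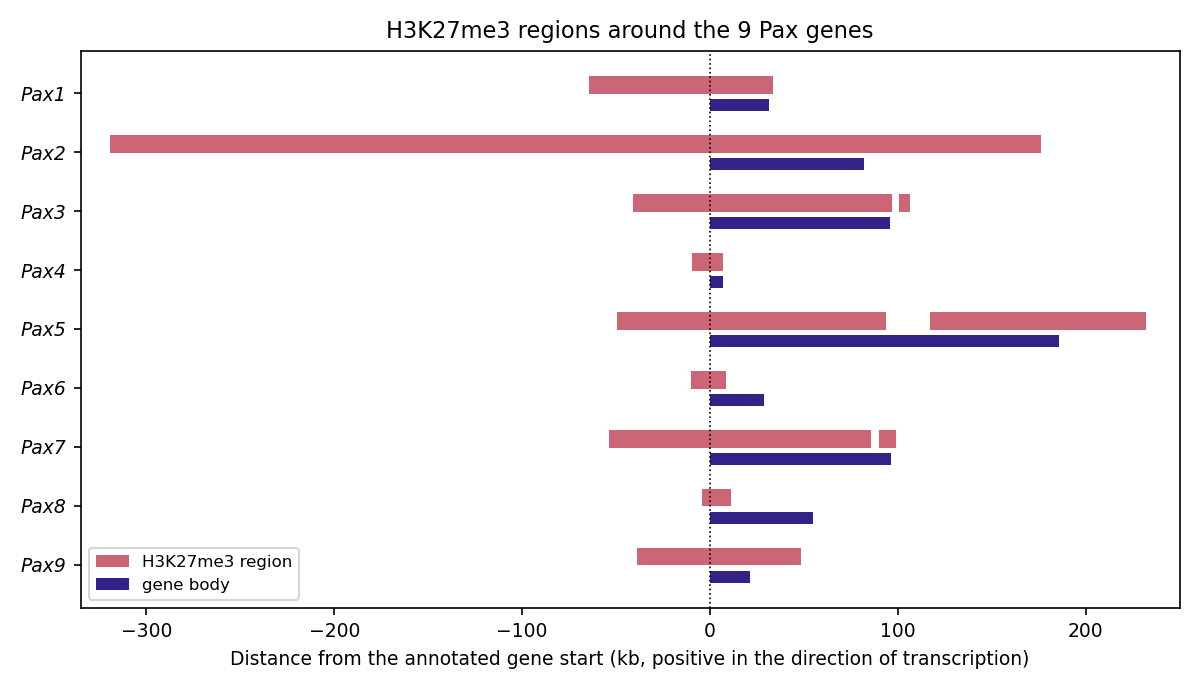
Position of the 12 H3K27me3 regions (upper bars) and of the gene bodies (lower bars) of the 9 Pax genes, in kb from the annotated gene start (dotted line), positive in the direction of transcription. Pax2 has the longest region (496 kb), and the regions of Pax6 (18.5 kb) and Pax8 (15.8 kb) cover the start and a minor part of the gene.

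Levels between genes were compared as normalized counts per kb of region, that is the antilog of the pooled log2 value divided by the length of the region. Flank added to the peaks can take up a larger share of a short region than of a broad one. How far this lowers the level per kb of short regions was not tested. In WT, the summed regions of Pax3 were highest at 305 per kb, followed by Pax9 at 257, Pax1 at 220, Pax7 at 207, Pax2 at 203, Pax5 at 140, Pax8 at 80.4, Pax4 at 48.8 and Pax6 at 33.4. In MommeD43 the order was Pax3 at 387, Pax9 at 304, Pax7 at 291, Pax2 at 278, Pax1 at 242, Pax5 at 180, Pax8 at 149, Pax6 at 75.6 and Pax4 at 56.7. With no spread between libraries, it cannot be said which neighbours in either order differ beyond replicate error. The median Pax region had 141 normalized counts per kb in WT and 195 in MommeD43, against 36.0 and 37.0 over the 11707 autosomal regions, with or without a gene. Pax6 was the one gene below that autosomal median of the levels in its start region in WT, and it was above it in MommeD43.

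**Figure D2:**
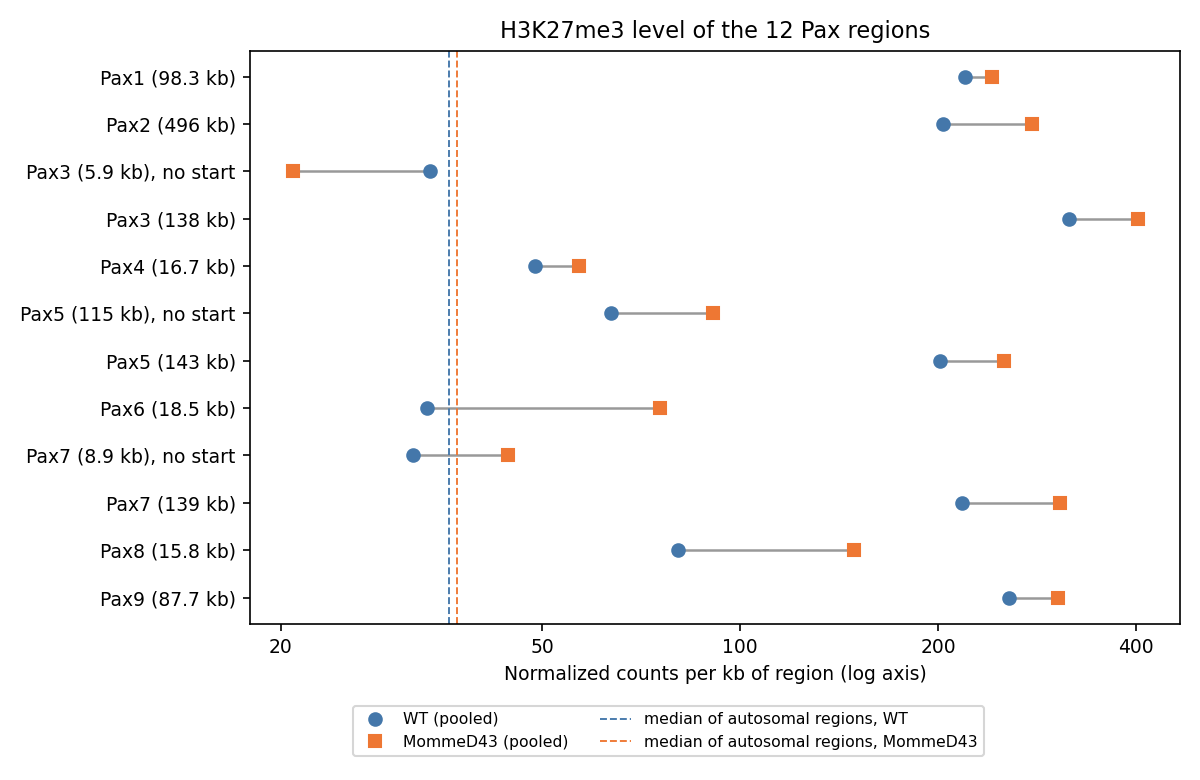
H3K27me3 level of each of the 12 Pax regions in WT (circles) and MommeD43 (squares), in normalized counts per kb on a log axis, with the medians of the autosomal regions as dashed lines. The start regions of Pax1, Pax2, Pax3, Pax5, Pax7 and Pax9 lie between 202 and 402 per kb in both genotypes, far right of the dashed lines at 36.0 and 37.0, and Pax6 moves from 33.4 in WT to 75.6 in MommeD43.

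Between genotypes, 11 of the 12 Pax regions had a higher value in MommeD43 and 1, a short region beside Pax3, had a lower value. Higher values were also the more common outcome over all 13585 regions (60.2%) and over the autosomal regions (57.7%). The values are relative to library size and do not give the total amount of the mark. The paper calls ChIP-seq poorly suited to comparing amounts of a histone mark. By immunofluorescence it reports a modest decrease of H3K27me3 in MommeD43 NSCs on the inactive X and, without data shown, over the whole nucleus. The median difference of the Pax regions (MommeD43 minus WT, log2) was 0.40, with quartiles of 0.24 and 0.50, against a median of 0.075 over the autosomal regions. A difference of at least 1 was found for 1 Pax region, that of Pax6, where 6.09% of all regions and 2.28% of the autosomal regions passed it. No Pax region was lower by 1 or more, a size of difference that 3.03% of all regions and 2.93% of the autosomal regions reached. The depth behind these values, recovered from the pooled columns as a geometric mean over libraries, ran from 46.6 reads per library for the short Pax3 region in MommeD43 to 52381 for Pax2 in MommeD43.

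These directions depended in part on how the 2 columns were scaled. Setting the summed normalized counts of all regions equal in both genotypes lowered every difference by 0.24, which left 9 of 12 Pax regions higher with a median of 0.16, and 32.9% of the autosomal regions higher with a median of -0.17. Relative to the autosomal median the Pax median was therefore 0.32 higher under either scaling. After the trend of the difference with the level per kb, a running median over the autosomal regions, was subtracted, 7 of 12 Pax regions were above 0 with a median of 0.11, a count near the 50.1% of the autosomal regions. The Pax6 region (1.18) and the Pax8 region (0.89) had values of at least 0.84 and 0.55 under each of the scalings and trends tried, while the start regions of Pax1, Pax3, Pax4, Pax5 and Pax9 fell below 0 under at least 1 of them.

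**Figure D3:**
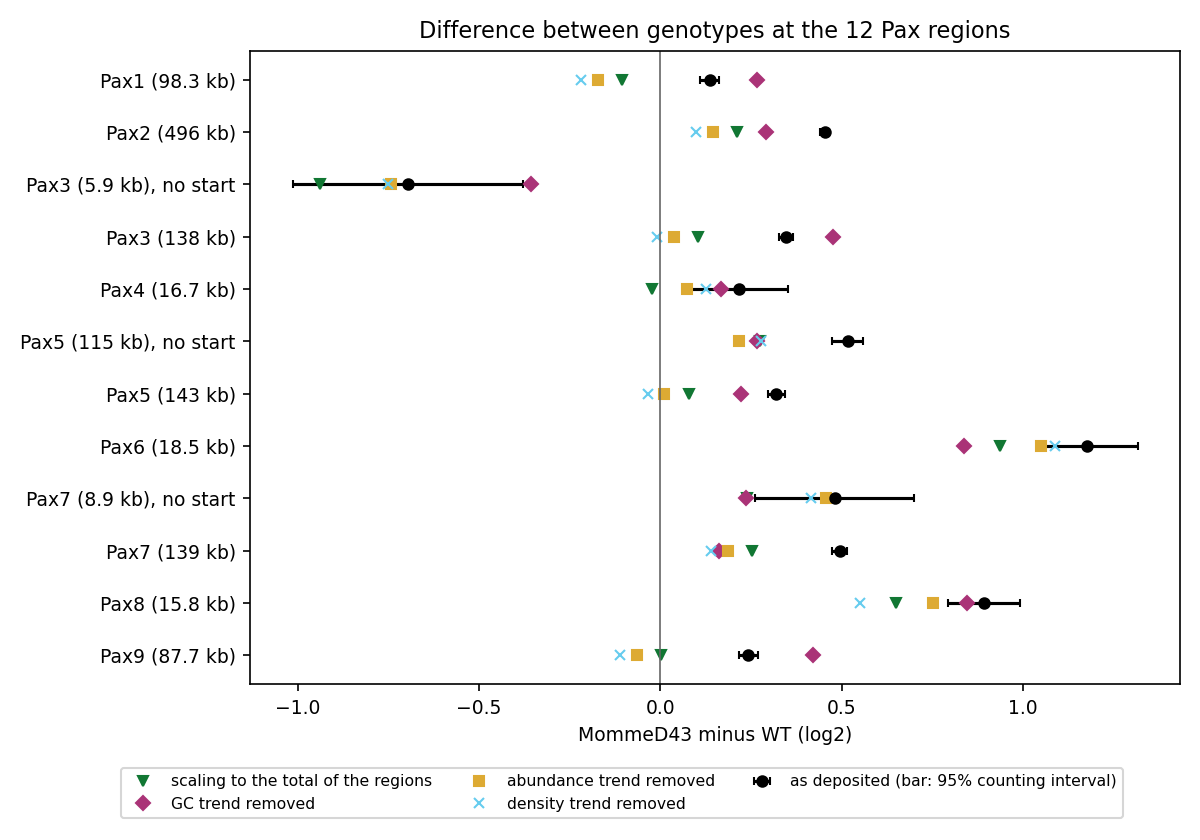
Difference between genotypes (MommeD43 minus WT, log2) at each of the 12 Pax regions as deposited (black circles, bars are 95% counting intervals) and under 4 alternative scalings or trend corrections (coloured symbols). Pax6 (1.18) and Pax8 (0.89) stay right of 0 throughout, whereas symbols of Pax1, the 138 kb region of Pax3, Pax4, the start region of Pax5 and Pax9 cross 0.

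Pax6 encodes a factor needed for the eye and for the progenitors of the embryonic cortex, and Pax4 acts in the endocrine cells of the pancreas. The Pax6 region (ENSMUSG00000027168, chr2:105659001-105677500, 18.5 kb) extended 9.90 kb upstream and 8.60 kb downstream of the annotated start, and 24.5% of it was Pax6 exon. Its pooled log2 value was 9.27 in WT and 10.45 in MommeD43, corresponding to 189 and 531 reads per library. The difference was 1.18, or 2.26-fold, with a 95% counting interval of 1.04 to 1.32.

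In the ranking of all autosomal regions by level per kb, Pax6 stood at the 41.6th percentile in WT and the 88.6th in MommeD43. Its difference was at the 98.6th percentile of the autosomal regions, and also at the 98.6th percentile of the 3866 autosomal regions under 50 kb that held the start of a protein-coding gene. In that class 66.3% of regions were higher in MommeD43 and 2.51% were higher by at least 1. The Pax6 region also had an unusually high CpG content, 33.0 per kb, at the 97.5th percentile of the class, and a GC content of 51.7%. Subtracting the trend of the difference with GC content left 0.84, and scaling to the total left 0.94, both below 1. The noncoding genes Pax6os1 and Paupar overlapped the same region, and the share of each in its reads was not tested. The nearest region outside the rule lay 53349 bp from the Pax6 gene and differed by -0.065.

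The Pax4 region (chr6:28442301-28459000, 16.7 kb) covered the whole gene and 9.65 kb upstream of its start. Its value was 9.67 in WT and 9.89 in MommeD43, or 249 and 360 reads per library, and the difference was 0.22 with a counting interval of 0.083 to 0.35. The Pax4 level of 48.8 per kb in WT stood at the 76.6th percentile of the autosomal regions, so it was higher per kb than Pax6 in WT and lower than Pax6 in MommeD43. The Pax4 difference was -0.024 after scaling to the total, which lowers every difference alike, and 0.17, 0.074 and 0.13 after removal of the trends with GC content, abundance and level per kb.

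Pax2, Pax5 and Pax8 act in the kidney, the midbrain and hindbrain, the B cell lineage and the thyroid. The Pax2 region (chr19:44436501-44932450) was the longest of the family at 496 kb, at the 99.96th percentile of autosomal lengths. It started 319.5 kb upstream of the Pax2 start and ended 176.4 kb downstream of it, and it also took in 6 other protein-coding genes, Wnt8b, Sec31b, Gm20538, Ndufb8, Hif1an and Slf2. A value over the whole domain cannot be assigned to Pax2 alone. The value was 16.62 in WT and 17.07 in MommeD43, a difference of 0.45 with the smallest counting error of the family, 0.0060. The Pax2 difference ranged from 0.10 to 0.29 once a trend was subtracted or the total scaled.

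Pax5, the commitment factor of B cells, had a start region (chr4:44616951-44759800, 143 kb) and a second region over its 3′ part (chr4:44478651-44593600, 115 kb), 23350 bp apart. The start region had a value of 14.81 in WT and 15.13 in MommeD43, and the 3′ region 12.84 and 13.35. Per kb, the start region was at 202 and 252 and the 3′ region at 63.7 and 91.0, so H3K27me3 was denser at the start of Pax5 in both genotypes. The differences were 0.32 for the start region and 0.52 for the 3′ region, with counting errors of 0.011 and 0.022. The start region, which also overlapped Zcchc7, was at 0.011 after the trend with abundance was subtracted and at -0.035 after the trend with level per kb, whereas the 3′ region stayed between 0.22 and 0.28 in each of these corrections and after scaling to the total.

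Pax8, a regulator of thyroid and kidney development, had a short region (chr2:24464301-24480100, 15.8 kb) that reached 4.50 kb upstream of the start and 11.3 kb into the gene. Its value was 10.31 in WT and 11.20 in MommeD43, or 388 and 895 reads per library. The difference of 0.89, or 1.86-fold, had a counting interval of 0.79 to 0.99 and stood at percentile 96.2 of autosomal regions under 50 kb with a gene start. Its level per kb was 80.4 in WT and 149 in MommeD43, at the 92.5th and 96.8th percentiles of the autosomal regions. Unlike Pax6, the Pax8 region had a GC content of 45.8% and 12.7 CpG per kb, near the medians of the Pax regions, and its difference after the GC trend was subtracted was 0.85. The nearest region outside the rule, 12909 bp from Pax8 and overlapping Psd4, differed by -0.54.

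Pax3 and Pax7 mark the dorsal neural tube, the neural crest and the progenitors of skeletal muscle. The main Pax3 region (chr1:78100101-78238300, 138 kb) covered the gene with 41.2 kb upstream of its start, and had the highest level of the family, 317 per kb in WT and 402 in MommeD43, at the 99.8th percentile of autosomal regions in both. Its value was 15.42 in WT and 15.76 in MommeD43, a difference of 0.35 that came to -0.0081 after the trend with level per kb was subtracted. The second Pax3 region (chr1:78090651-78096550, 5.9 kb) lay 4716 bp past the 3′ end of the gene, between genes, and entered through the 5 kb flank. It was the one region of the family with a lower value in MommeD43, 6.94 against 7.64 in WT, and it kept that direction under every scaling and trend tried (-0.94 to -0.36). It rested on 60.9 reads per library in WT and 46.6 in MommeD43, the fewest of the family, and its difference of -0.70 had a counting interval of -1.01 to -0.38.

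Pax7, which marks muscle satellite cells in the adult, had a start region (chr4:139748001-139887400, 139 kb) and a short region over its 3′ end (chr4:139734651-139743550, 8.9 kb), 4450 bp apart. The start region had values of 14.89 in WT and 15.38 in MommeD43, and the 3′ region 8.14 and 8.62. The differences were close, 0.49 for the start region and 0.48 for the 3′ region, although the counting interval of the latter ran from 0.26 to 0.70. The levels were far apart, at 218 and 307 per kb for the start region and 31.8 and 44.4 per kb for the 3′ region, of which 43.2% was Pax7 exon. Both Pax7 regions had values above 0 under each scaling and trend correction, between 0.14 and 0.46.

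Pax1 and Pax9 pattern the sclerotome, which forms the vertebrae, and the pharyngeal pouches, and Pax9 is also needed for teeth. The Pax1 region (chr2:147297351-147395650, 98.3 kb) held no other protein-coding gene and extended 64.6 kb upstream of the start. Its value was 14.40 in WT and 14.54 in MommeD43, and the difference of 0.14 was the smallest of the family among the regions with a higher value in MommeD43. The Pax9 region (chr12:56652651-56740300, 87.7 kb) extended 39.1 kb upstream, also overlapped Slc25a21, and had values of 14.46 and 14.70, a difference of 0.24. In contrast to their small differences, both stood at or above the 98.7th percentile of autosomal regions in level per kb in each genotype, Pax1 at 220 and 242 per kb and Pax9 at 257 and 304. Pax1 was at -0.11 and Pax9 at 0.0015 after scaling to the total, and removal of the trend with abundance took them to -0.17 and -0.066. The GC trend moved both the other way, to 0.27 and 0.42. Their GC contents, 43.5% and 42.7%, were below the Pax median.

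The Pax regions were also set beside autosomal regions of like length. All 7 Pax regions of 50 kb or more were higher in MommeD43 with a median of 0.35, where 77.0% of the 708 autosomal regions of that length were higher, with a median of 0.26. The broad Pax regions were therefore 0.091 above the median of their class, and this excess was 0.18 after removal of the GC trend, 0.059 after the trend with abundance and 0.014 after the trend with level per kb. Within that class, the percentiles of the 7 differences ran from 36.3 for Pax1 to 80.8 for the 3′ region of Pax5. Their levels had a median of 218 per kb in WT and 278 in MommeD43 against 87.4 and 103 over the class. The 3 start regions under 50 kb, those of Pax4, Pax6 and Pax8, had differences of 0.22, 1.18 and 0.89, against a median of 0.15 over autosomal regions under 50 kb with a gene start. Pax4 stood at percentile 57.3 of that class, and Pax6 and Pax8 at 98.6 and 96.2.

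**Figure D4:**
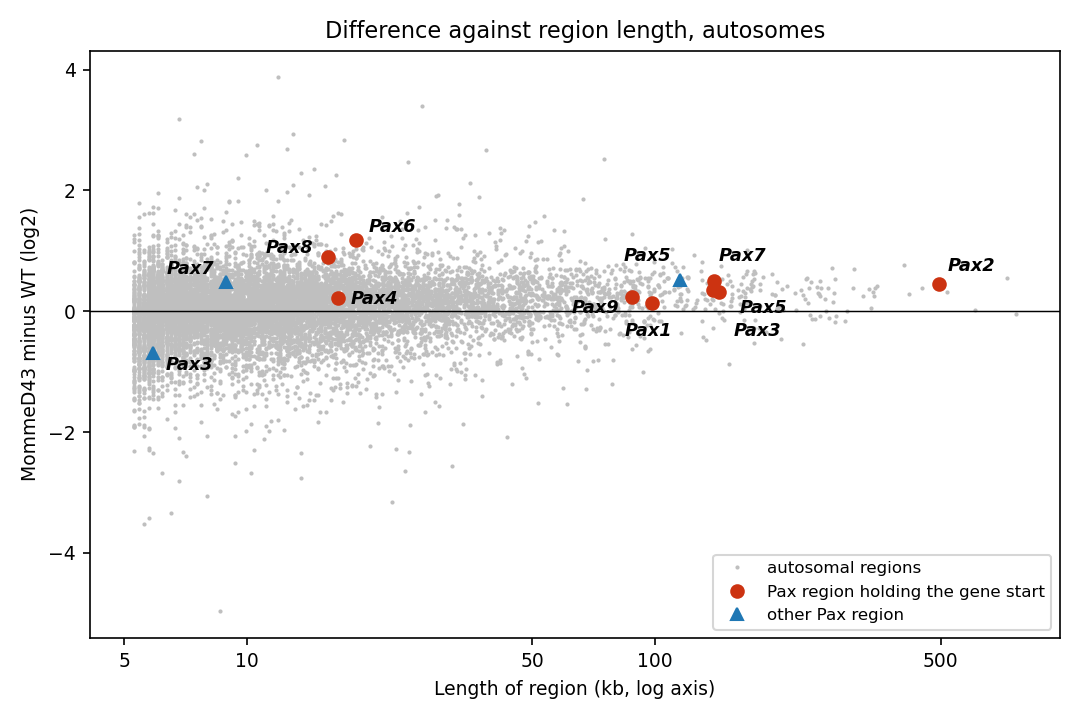
Difference between genotypes (MommeD43 minus WT, log2) against region length in kb (log axis) for the 11707 autosomal regions (grey) and the 12 Pax regions (circles where the region holds the gene start, triangles otherwise). The 7 broad Pax regions lie between 0.14 and 0.52, within the cloud of regions of like length, while Pax6 (1.18) and Pax8 (0.89) lie in its upper part and the short Pax3 region (-0.70) in its lower part. Scaling to the total would lower every point by 0.24.

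Genes that work with Pax proteins were described by the regions holding their starts. The list of genes that act with Pax genes in a network of organ formation, among them the Eya genes and Dach1, comprised 11 genes, of which Eya3 lacked a region and the other 10 had their starts in 8 distinct regions. These had a median difference of -0.36, with 3 of 8 higher and 5 lower, where the share higher was 66.3% of short autosomal regions (under 50 kb) with a gene start and 77.0% of broad ones (50 kb or more). After removal of the GC trend 4 of 8 were higher with a median of 0.0045, near the 52.0% of short and 59.6% of broad regions after the same removal. Dach1, a transcriptional cofactor, was lowest, with 10.34 in WT and 8.06 in MommeD43, a difference of -2.28 that was -1.48 after removal of the GC trend. Six5 was highest with 8.78 and 9.69, a difference of 0.91, and had the lowest level of the list in WT, 24.6 per kb.

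Of 22 genes known to be regulated by Pax proteins in various organs, 18 had a region and Myf5, Mitf, Atoh7 and Gcg lacked one. Their 18 start regions comprised 16 higher and 2 lower in MommeD43, with a median of 0.37, beside the same 66.3% of short and 77.0% of broad autosomal regions. Of these regions 10 of 18 were higher with a median of 0.13 after scaling to the total, beside 39.9% of short and 51.4% of broad regions so scaled. The growth factor gene Bmp4 differed most, from 10.36 in WT to 11.98 in MommeD43 (1.62). Per kb in WT, Nkx3-2, a target of Pax1 and Pax9 in the sclerotome, was highest at 285, and Slc5a5, the iodide transporter gene, was lowest at 21.2, with a difference of 1.07.

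Among 23 paired-class homeobox genes that have no paired domain, 19 had their start in a region, Prrx2 and Hesx1 had a region without the start, and Prrx1 was among those that lacked one. Drgx was found under its older symbol Prrxl1. Of these 19 regions 15 were higher and 4 lower, again beside 66.3% of short and 77.0% of broad autosomal regions. The median difference was 0.36, close to the 0.35 of the 9 Pax start regions, and 11 of 19 were higher after scaling to the total, beside the same 39.9% and 51.4%. Phox2a, a factor of noradrenergic neurons, differed most at 0.96, and Otx1, a forebrain regulator, was lowest at -0.58 and also had the lowest level, 30.6 per kb in WT. The levels of this list, 204 per kb in WT and 238 in MommeD43 as medians, were likewise close to those of the Pax start regions, 203 and 252.

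**Figure D5:**
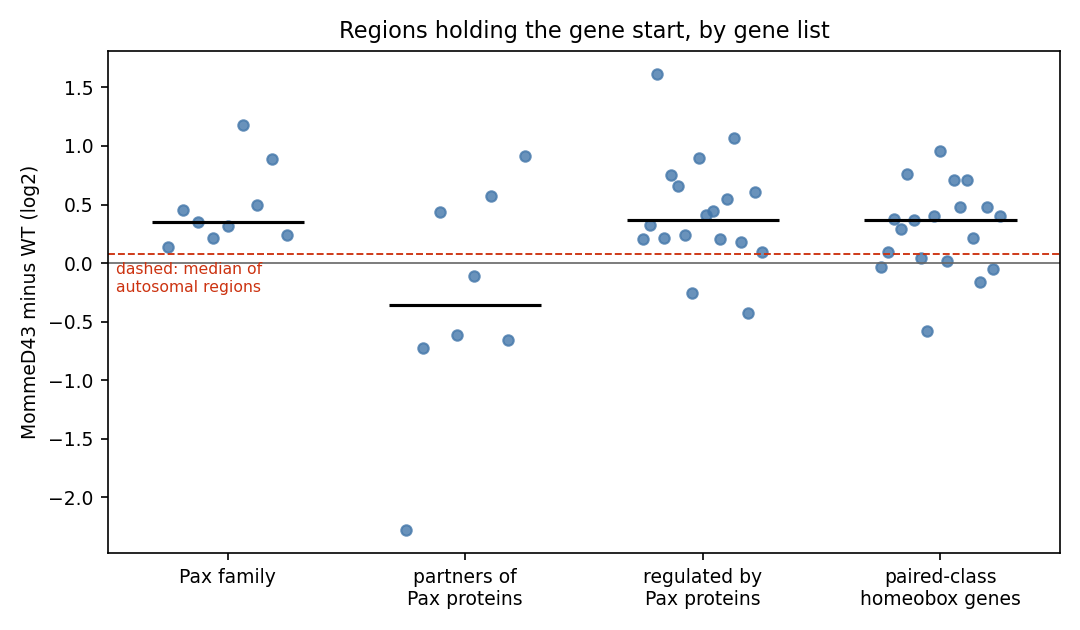
Difference between genotypes (MommeD43 minus WT, log2) of each region that holds a gene start, for the 9 Pax regions, the 8 of Pax partners, the 18 of genes regulated by Pax proteins and the 19 of paired-class homeobox genes (points), with list medians as horizontal lines and the autosomal median (0.075) dashed. The partners have a median of -0.36 and a lowest value of -2.28 (Dach1), and the other lists have medians between 0.35 and 0.37, which scaling to the total takes to between 0.10 and 0.13 for the latter and to -0.60 for the partners.

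H3K27me3 does not measure transcription, so the labelled cell type was checked by whether marker starts were free of a region. Of 8 NSC markers, Nes, Msi1 and Cdk6 had their start in a region, and Sox2, Vim, Fabp7 and Egfr had no region at all. Starts in a region were found for 2 of 5 neuronal, 2 of 3 astrocyte, 3 of 4 oligodendrocyte lineage and 2 of 4 microglial markers. Over the 20807 autosomal protein-coding genes the share was 28.9%. The NSC markers, at 3 of 8, were not below that share, so these few markers do not settle the cell type. A region at a gene such as Pax6 does not say in how many of the cells the mark was present.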

How the data were processed

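H3K27me3 ChIP-seq was done with an antibody to H3K27me3 (C36B11) on 3 NSC lines per genotype. The submitters' processing notes name bcl2fastq, Trim Galore 0.4.4, Bowtie2 2.3.4.1 and GRCm38.p6. The study's methods describe peaks called on merged replicates, the lists of both genotypes being widened on each side, joined where close, and counted. The labels describe micrococcal nuclease and the methods shearing, so the fragmentation is uncertain. The deposited values are log2 counts per region that the authors scaled to total library size and averaged over the libraries of a genotype, with WCE not subtracted. They are not divided by length.

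Region length was taken from the End column, since the end within the region name differed from it in 8582 rows. Gene bodies came from GENCODE release M21 and promoters from RefSeq. The members and lists were chosen with earlier results of these data known. All 9 members were named. From each other list values are given for at most 4 genes, those with the highest and lowest difference and the highest and lowest level per kb in WT, and genes without a region or a start in one, or found under another symbol, were named besides, as were NSC markers, outside that rule. A few of these are not reported here. A count model was planned for the case of counts per library, and pooled log2 values allow none.

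Depth was read from the deposited log2 values, since averaging 3 log2 counts gives a product of 3 whole counts apart from a constant. For products under 30000, 99.9% of WT and 99.6% of MommeD43 values were whole to within 0.1 (chance gives 20%), and 1 read was worth 3.27 and 2.63 normalized counts. Counting errors are the smallest that Poisson counts allow (95% intervals). They leave out variation between cell lines, and without molecular identifiers a read need not be a separate molecule. Alternatives were 2 scalings, trends with GC content, abundance and level per kb (running medians over 40 bins of autosomal regions), a pseudocount of 10, other flanks and a filter on low values. The tools were pandas 2.3.3, numpy 2.4.6, scipy 1.17.1 and matplotlib 3.10.9 under Python 3.11.15, and the scripts were tested on simulated data.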

Additional observations from a re-analysis of the deposited data

How the results depend on the processing

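The median difference of the Pax regions (0.40) was 0.16 when scaled to the summed regions, 0.11 after removal of the trend with abundance and 0.11 after removal of the trend with level per kb. It was 0.32 after scaling to the autosomal median, 0.27 after removal of the GC trend, 0.45 with no flank (11 regions), 0.33 with a flank of 20 kb (16 regions), 0.35 for the 9 start regions and 0.45 for regions at or above the median value. The count of higher regions was 11 as deposited and 7 after removal of the trend with level per kb, where 50.1% of the autosomal regions were above 0. The count at least 1 higher, 1 as deposited (Pax6), was 0 after scaling to the total and 0 after removal of the GC trend. The reversed values were, after scaling to the total, Pax1 at -0.11 and Pax4 at -0.024, after removal of the trend with abundance, Pax1 at -0.17 and Pax9 at -0.066, and, after removal of the trend with level per kb, Pax1 at -0.22, the 138 kb region of Pax3 at -0.0081, the start region of Pax5 at -0.035 and Pax9 at -0.11. The cause was not tested. The ratio of the highest to the lowest gene level in WT was 9.12 per kb and 163 when not divided by length. Of 72 region values under alternatives, 8 changed sign, 37 left their counting interval without changing sign and 27 did not leave it. The trend with level per kb, the alternatives for the count at least 1 higher, and the counts under the pseudocount and for start regions were chosen after seeing the data. No paired analysis was possible because each genotype has 1 pooled column, and for the same reason leaving out replicates, the replicate block and the edgeR and DESeq2 comparison were not run. Depth limits the short regions most: the counting error was 0.16 for the short Pax3 region and 0.11 for the 3′ region of Pax7.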
